A study of Mus musculus with 96 samples.

Results

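The genes described here are those of the hypoxia-inducible factor (HIF) pathway: the HIF subunits Hif1a, Epas1 and Arnt, the regulator Vhl, the prolyl hydroxylases Egln1, Egln2 and Egln3, and the targets Vegfa, Car9 and Ndufa4l2. They were taken by symbol from a table of transcript abundance and make up 10 of its 54532 genes, each on 1 row. All 10 passed the filter on low values used for the tests.

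HIF is a transcription factor made of an oxygen-regulated alpha subunit (HIF-1 alpha from Hif1a, HIF-2 alpha from Epas1) and a stable partner, ARNT. When oxygen is plentiful, the prolyl hydroxylases mark the alpha subunit, the VHL ubiquitin ligase binds the mark and the subunit is degraded, so the amount of HIF protein is set largely after transcription. The renal medulla, above all its inner part, normally works at a lower oxygen tension than the cortex.

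The study measured polyadenylated RNA from microdissected glomeruli and tubule segments of male C57BL/6 mice aged 6 to 8 weeks on normal chow, with no genetic change or treatment. In all, 53 mice gave 93 samples, 6 of them glomeruli and 87 tubules, and the pieces of 1 mouse and segment were averaged, which left 53 mice in 15 groups of 3 to 5. Cortical segments were the first convoluted part of the proximal tubule (PTS1), its straight part in the medullary rays (PTS2), the cortical thick ascending limb (CTAL), and the distal convoluted tubule (DCT), followed by connecting tubule (CNT) and cortical collecting duct (CCD). Outer medullary segments were the end of the proximal straight tubule (PTS3), the descending limbs of short loops (DTL1) and of long loops (DTL2), the medullary thick limb (MTAL) and the outer medullary collecting duct (OMCD). Inner medullary segments were the deeper descending limb (DTL3), the thin ascending limb (ATL) and the inner medullary collecting duct (IMCD), while the glomerulus (GL) was placed in no zone.

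Values are TPM (transcript abundance scaled by transcript length and to 1 common total per sample), so levels may be set side by side between genes, while read depth is not known. Differences are given in log2(TPM + 1), where a low gene's change appears smaller than it is. A gene is called where the adjusted p is below 0.05 and the log2 difference is at least 1 in size. A dissected segment carries the cells attached to it, and in such bulk samples fewer cells of a type and less RNA per cell cannot be told apart.

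Defining markers were high where the labels place them. Slc12a3 averaged 5782 TPM in DCT and at most 8.06 TPM elsewhere, Umod averaged 21240 TPM in MTAL and 36930 TPM in CTAL, and the 4 podocyte markers summed to 8141 TPM in GL. The 5 proximal markers summed to 12460 TPM in PTS1 and 6746 TPM in PTS2 but to 98.7 TPM in PTS3, where Slc5a2 was at 0. Lrp2 and Cubn still averaged 34.25 and 18.75 TPM in PTS3. Some lists were high outside their own structure. The 7 endothelial markers summed to 3908 to 4080 TPM over GL mice, 3324 to 4461 in DTL1, 1270 to 2271 in DTL2 and 794 to 1883 in DTL3, with all 7 at 1 TPM or more in every mouse of those groups, against group means of at most 502 TPM in the others. Odorant and vomeronasal receptor genes (1979 in the table), which kidney tubules should hardly transcribe, summed to a mean of 3567 TPM in DTL1, 2092 in GL, 1564 in DTL3, 1401 in ATL, 1096 in DTL2 and 620 in OMCD, and to at most 262 TPM in any other group. Within ATL that sum ran from 70.1 to 2934 TPM over the 4 mice.

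Hif1a, which encodes the more widely expressed alpha subunit, was highest in DTL3, with 392, 564 and 488 TPM in the 3 mice. In IMCD the mice held 211, 412 and 445 TPM, and in DTL2 they held 275, 181 and 450 TPM. These 3 groups overlapped, and so did each neighbour in the order that followed down to CNT: OMCD at 224 to 297 TPM, CCD at 236 to 291 TPM and CNT at 226 to 243 TPM. A gap separated CNT from DTL1, where the mice held 153, 118 and 121 TPM, and a further gap separated DTL1 from ATL at 75.8 to 100.1 TPM. The proximal tubule was lowest, with 25.5, 19.7 and 27.3 TPM in PTS1, 26.0 to 35.3 TPM over the 5 mice of PTS2, and 11.4, 7.57 and 9.94 TPM in PTS3. No PTS3 mouse reached the lowest mouse of any other group, and mean Hif1a in DTL3 was 50.0-fold that in PTS3. The early-response genes (Fos, Jun and 5 others), which often rise during tissue handling, were also high in several of these groups. Their summed mean was 3031 TPM in CCD, 2380 in DTL3, 1613 in CNT, 621 in OMCD, 564 in IMCD and 137 in DTL2, against 16.2 in PTS3. GL had a sum of 875.5 TPM and a Hif1a mean of 63.4 TPM. In DTL3 that sum ran from 103 to 6750 TPM over the 3 mice, and Hif1a ran from 392 to 564 TPM. Its part in the level of Hif1a was not tested.

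Epas1, whose product HIF-2 alpha is known from endothelium and from interstitial cells that make erythropoietin, was concentrated in the glomerulus. The GL mice held 85.4, 93.0 and 130 TPM. The next groups were DTL1 with 13.9, 19.7 and 13.6 TPM, DTL2 with 10.2, 11.1 and 10.3 TPM and CNT with 9.63, 8.81 and 8.78 TPM. None of these 4 groups overlapped its neighbour, and CNT did not overlap the next one down, CCD at 4.88 to 6.49 TPM. All other tubule groups had means of at most 4.58 TPM, and IMCD was lowest with 0.19, 0.293 and 0.54 TPM. The 3 groups with the highest Epas1 were also the 3 with the highest endothelial sum, GL, DTL1 and DTL2. Below these the 2 orders differed. DTL3 was next for the endothelial sum, at a mean of 1289 TPM, and its Epas1 averaged 4.085 TPM. CNT and CCD, with endothelial sums of 331.5 and 193.6 TPM, averaged 9.07 and 5.72 TPM of Epas1. GL and DTL1 had endothelial sums of 3978 and 3751 TPM, beside Epas1 means of 102.8 and 15.7 TPM. The part of endothelial RNA in the Epas1 level was not tested.

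As a share of the summed TPM of both alpha subunits, Epas1 made up 61.5% ± 4.18 in GL (SD, n = 3). In the tubule its mean share exceeded 11% only in PTS3, at 21.4% ± 6.91 (n = 3), where the sum of both was the lowest of all groups at 12.3 TPM. In PTS2, the part just upstream, it was 8.91% ± 1.47 (n = 5), and the ranges of 13.5% to 26.0% and 6.51% to 10.2% did not overlap. Epas1 itself averaged 2.744 TPM in PTS2 and 2.685 TPM in PTS3, a log2 difference of -0.08 ± 0.202 (SE) that was not called. Hif1a averaged 28.5 and 9.63 TPM in the same order. In IMCD the Epas1 share was 0.0942% ± 0.0252 (n = 3). Hif1a was thus the more abundant alpha transcript in each mouse of the 14 tubule segments, and Epas1 in each GL mouse.

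**Figure D1:**
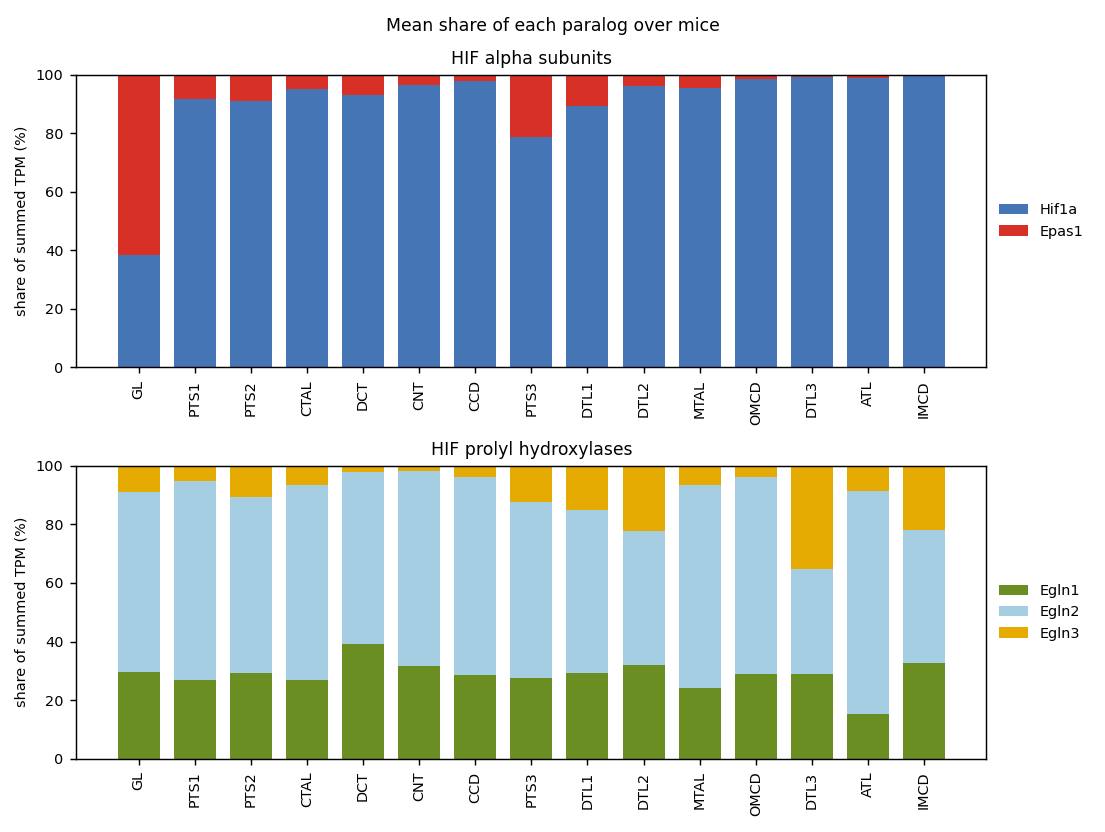
Mean over mice of each paralog's share of the summed TPM (vertical axes, percent) for the HIF alpha subunits (top) and the prolyl hydroxylases (bottom), by group. Epas1 makes up 61.5% in GL and at most 21.4% in any tubule segment, and Egln3 makes up 35.2% in DTL3 and 1.9% in CNT.

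Arnt, the common partner, varied less. It was highest in GL at 67.0, 70.9 and 72.5 TPM, with no overlap with DTL3 at 39.4, 46.2 and 48.1 TPM. DTL1, OMCD, ATL and DTL2 came next, with means of 35.3 to 41.8 TPM and overlapping neighbours. The lowest group means were those of the proximal tubule, whose mice lay at 11.48 to 14.5 TPM in PTS1, 8.96 to 11.1 in PTS2 and 6.06 to 11.51 in PTS3. IMCD, at 12.7, 26.7 and 22.4 TPM, reached into the PTS1 range through mouse 1. The 6 groups with the highest Arnt were the same 6 that had the highest summed odorant and vomeronasal receptor signal. The part of that background in the Arnt level was not tested.

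Vhl encodes the substrate-binding subunit of the ligase that marks HIF alpha for degradation. IMCD held 48.6, 83.3 and 85.2 TPM and DTL3 63.0, 63.8 and 58.4 TPM, and these groups overlapped. DTL3 lay above every mouse of the groups ranked below it, the next being ATL at 50.8, 46.7, 22.4 and 53.7 TPM. Of the 14 neighbouring pairs in the order of Vhl levels, 13 overlapped, and the lowest group was PTS3 at 12.4 to 21.4 TPM.

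The 3 prolyl hydroxylases differed in how evenly they were expressed. Egln2 (PHD1) was the most even member, with group means from 44.3 TPM in DTL2 to 87.6 TPM in MTAL and an overlap between all 14 neighbouring pairs. Egln1 (PHD2), regarded as the main oxygen sensor of HIF-1, had means from 29.2 to 44.7 TPM in 13 groups. The exceptions were PTS1 with 17.1, 15.4 and 21.1 TPM and ATL with 16.4, 11.2, 11.7 and 12.4 TPM, which lay below every mouse of the other 13 groups.

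Egln3 (PHD3), which is itself a HIF target in many cells, spanned 24.8-fold. The DTL3 mice held 61.8, 56.4 and 46.5 TPM, above every mouse of every other group. IMCD held 21.2, 34.0 and 24.2 TPM and DTL2 held 32.1, 21.7 and 13.3 TPM, with overlap. In DTL1 mice 1 and 3 held 21.6 and 27.1 TPM but mouse 5 held 4.97 TPM. The lowest groups were DCT at 1.74 to 3.11 TPM and CNT at 1.54 to 2.57 TPM. As a share of the 3 hydroxylases together, Egln3 was 35.2% ± 3.05 in DTL3 (SD, n = 3), 22.2% ± 6.52 in DTL2 (n = 3), 22.1% ± 1.94 in IMCD (n = 3) and 1.9% ± 0.442 in CNT (n = 3). Egln2 was the most abundant hydroxylase transcript on average in each of the 15 groups, and in DTL3 its share of 35.9% ± 2.73 (n = 3) overlapped that of Egln3.

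Vegfa, the growth factor that podocytes and tubules supply to nearby endothelium, was highest in GL. The 3 GL mice held 905, 977 and 1114 TPM, and no other group exceeded 179 TPM in any mouse. CNT held 153, 136 and 179 TPM, DTL2 171, 145 and 139 TPM, and MTAL 133, 155 and 162 TPM, and these groups overlapped. At the low end DTL1 held 25.1, 17.9 and 19.1 TPM and IMCD 11.3, 20.6 and 18.2 TPM. These were below every other group, and mean Vegfa was 9.36-fold higher in CNT than in IMCD. The high GL value stood beside podocyte markers, which summed to 7428 TPM or more in GL and to 36.2 TPM or less on average in the tubule groups.

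Car9, a membrane carbonic anhydrase widely used as a marker of HIF-1 activity in tumours, was confined largely to the proximal tubule. The PTS3 mice held 76.4, 53.9 and 33.2 TPM and the PTS2 mice 33.0, 53.4, 38.6, 46.0 and 51.7 TPM, with overlap. DTL1 held 5.89, 8.76 and 8.72 TPM and PTS1 4.96, 3.53 and 6.71 TPM. The other 11 groups averaged at most 2.2 TPM, and a mouse at 0 occurred in ATL, MTAL and CCD. PTS3 and PTS2, which ranked first and second for Car9, were among the 3 lowest groups for Hif1a, but DTL1, the next for Car9, had a Hif1a mean of 131 TPM.

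Ndufa4l2, a HIF-1 target that replaces a subunit of the respiratory chain and is known from pericytes, was high only in GL. Its mice held 60.95, 44.05 and 64.0 TPM, against at most 5.16 TPM in any tubule mouse, and 1 or more mice of DTL1, ATL, CNT, CCD and IMCD were listed at 0. Its widely used paralog Ndufa4 averaged 550 TPM in GL, the lowest of its 15 group means, and up to 3111 TPM in MTAL. The stromal and mural markers summed to 594 to 870 TPM over the GL mice and to at most 80.0 TPM in any tubule mouse. Their part in the Ndufa4l2 level was not tested.

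**Figure D2:**
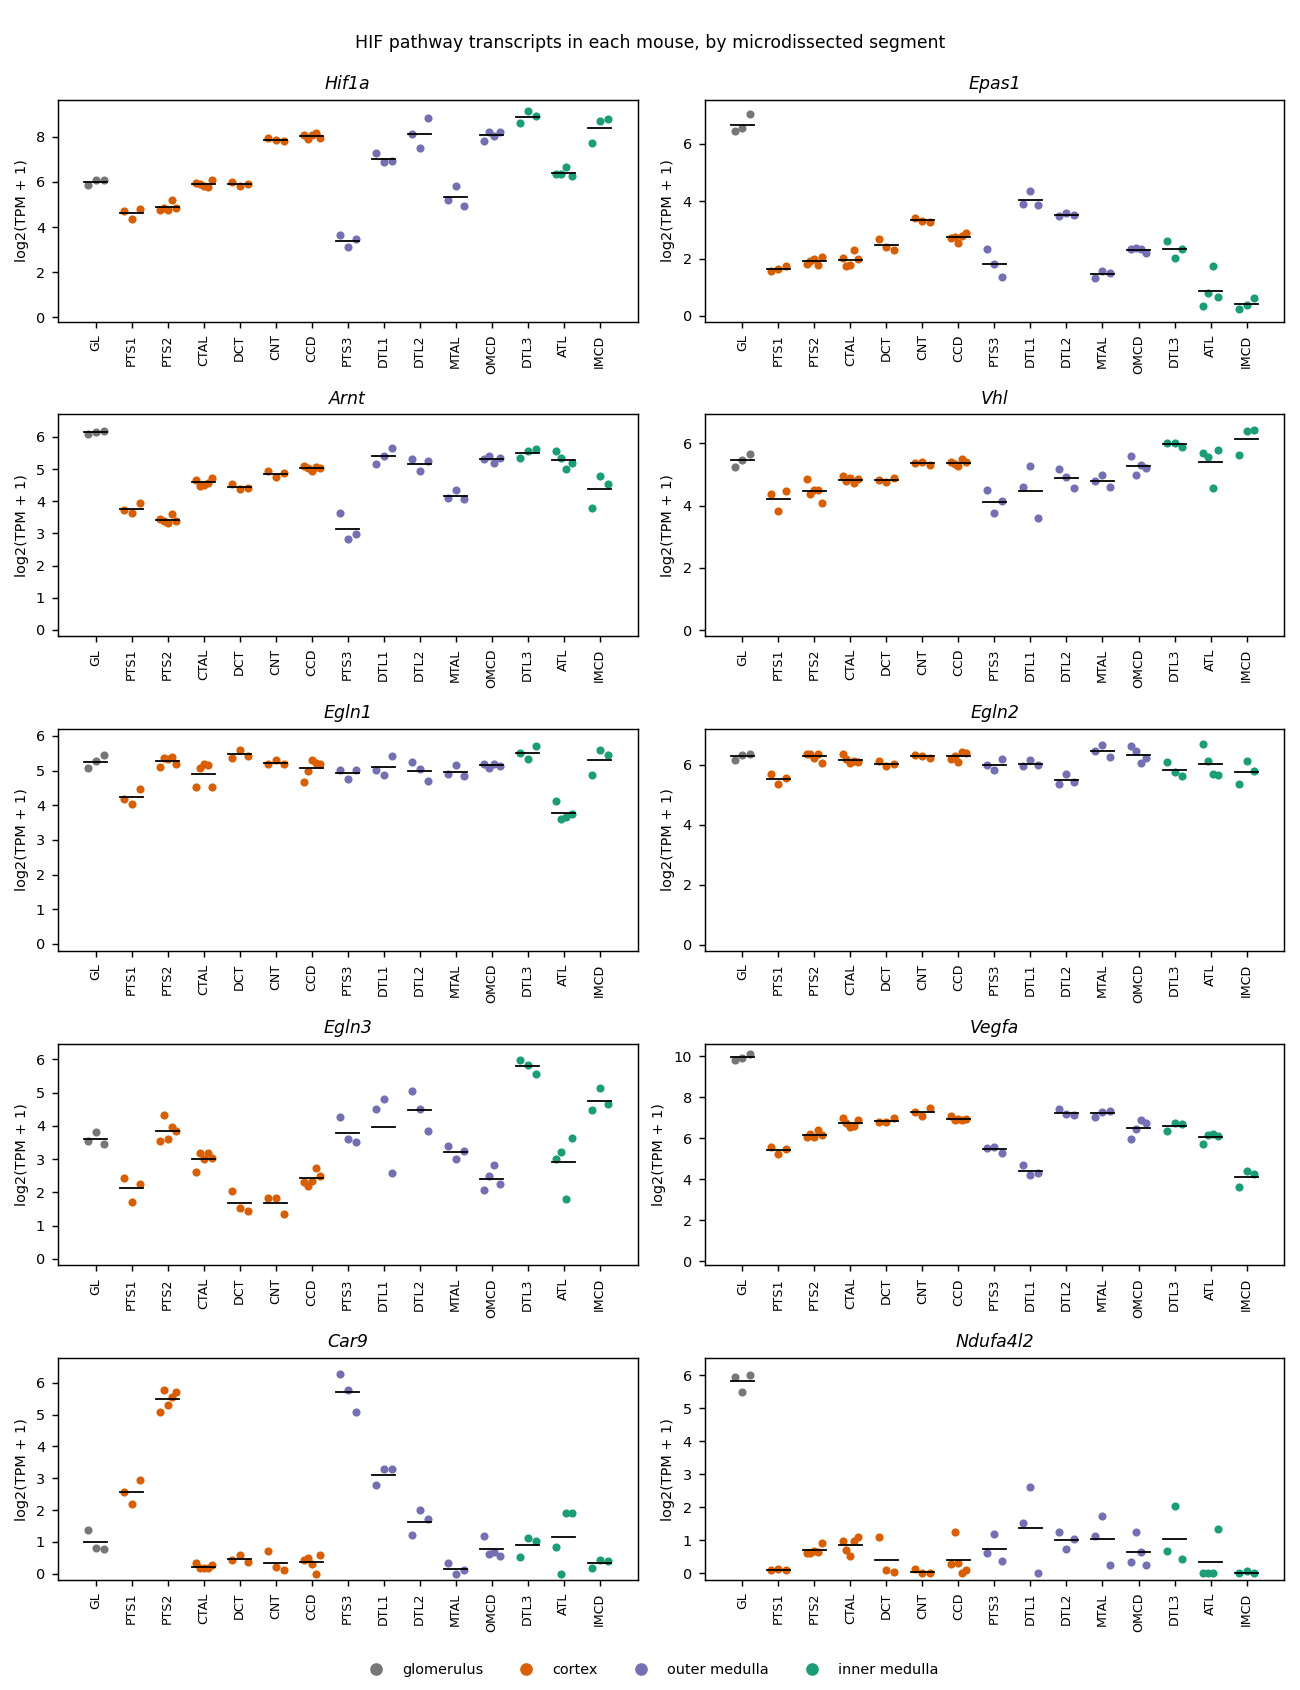
Each point is 1 mouse and each bar the group mean of log2(TPM + 1) (vertical axes) for the 10 genes, with segments ordered by zone on the horizontal axes. Hif1a ranges from 9.63 TPM in PTS3 to 482 TPM in DTL3, and Epas1, Vegfa and Ndufa4l2 stand highest in GL.

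For 2 of the targets, Egln3 and Car9, the 250 bases before the transcription start are shown, because these genes peaked in different tubules, Egln3 in DTL3 and Car9 in PTS3. The third sequence, for Vegfa, is shown because it holds no match. Sequences are from RefSeq on mouse build GRCm38.p6, not from the samples. Capitals mark the core of the HIF response element, searched as ACGTG or GCGTG and, for the other strand, as CACGT or CACGC.
Egln3 (chr12:54203875-54204124, minus strand): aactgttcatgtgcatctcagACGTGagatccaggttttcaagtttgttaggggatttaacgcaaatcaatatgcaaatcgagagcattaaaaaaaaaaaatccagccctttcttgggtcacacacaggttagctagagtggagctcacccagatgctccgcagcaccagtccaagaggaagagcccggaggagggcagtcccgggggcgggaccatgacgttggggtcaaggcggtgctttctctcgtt
Car9 (chr4:43506776-43507025, plus strand): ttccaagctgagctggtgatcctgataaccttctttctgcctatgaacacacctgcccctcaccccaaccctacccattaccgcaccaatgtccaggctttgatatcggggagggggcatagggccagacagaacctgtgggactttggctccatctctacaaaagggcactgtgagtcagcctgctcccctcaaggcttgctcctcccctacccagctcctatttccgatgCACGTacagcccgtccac
Vegfa, upstream start (chr17:46032378-46032627, minus strand): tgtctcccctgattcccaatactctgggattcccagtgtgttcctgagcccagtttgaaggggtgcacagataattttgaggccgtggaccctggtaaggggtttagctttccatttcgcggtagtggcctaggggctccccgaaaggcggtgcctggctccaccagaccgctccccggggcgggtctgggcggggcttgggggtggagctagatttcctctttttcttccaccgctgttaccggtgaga

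The Egln3 match begins 229 bases before the start and the Car9 match 18 bases before it. Of the members, 8 had a promoter entry, with 10 starts in all because Egln2 and Vegfa have 2 each; Epas1 and Ndufa4l2 had no entry. A match was present at 8 of the 10 starts, all except that of Vhl and the upstream start of Vegfa. Over all 32851 promoter entries, 38.6% held a match in the same 250 bases. In Hif1a the matches on both strands at 1 place lay inside CACGTG, the E-box that other factors also bind. A match of these letters is a description and not a binding site.

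All 10 genes differed among the 15 groups by limma's moderated F-test, with adjusted p from 2.11e-28 for Vegfa to 3.85e-06 for Egln2. Of all 33793 genes tested, 93.9% did so, which leaves nothing to read from the members' count.

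The study's segments allow a comparison of cortex, outer medulla and inner medulla as the plain means of 6, 5 and 3 segments. From cortex to outer medulla, 1 of the 10 members was called: Egln3 rose by 1.12 ± 0.147 (log2, SE; adjusted p = 1.82e-08). Over all genes 9.63% were called in this comparison, and the median difference was 0.36 over all genes and 0.23 over the members. Segment means of Egln3 ran from 2.21 to 13.8 TPM in the cortex and from 4.42 to 22.4 TPM in the outer medulla, so the zones overlapped. The Egln3 call was lost without the thin limbs, at 0.68, and after rescaling by median ratios, at 0.87, or quantiles, at 0.64.

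From outer to inner medulla, 4 of 10 members were called, against 8% of all genes. Hif1a rose by 1.51 ± 0.111 (adjusted p = 1.24e-15) and Vhl by 1.14 ± 0.131 (adjusted p = 8.28e-10). Epas1 fell by 1.42 ± 0.112 (adjusted p = 1.52e-14) and Car9 fell by 1.49 ± 0.156 (adjusted p = 5.93e-11). For Car9 the outer medullary segment means ran from 0.113 TPM in MTAL to 54.5 TPM in PTS3 and the inner medullary ones from 0.271 to 1.57 TPM, so the zones overlapped, and no inner medullary segment is proximal. With all mice kept, neither step within a tubule that enters the inner medulla called Hif1a. It was at 0.31 ± 0.208 from OMCD to IMCD (adjusted p = 0.264) and 0.76 ± 0.223 from DTL2 to DTL3 (adjusted p = 0.0109). Without DTL2 mouse 3, Hif1a passed the minimum difference from DTL2 to DTL3. Vhl was called from DTL2 to DTL3 but not from OMCD to IMCD, at 0.87 ± 0.247 (adjusted p = 0.005). In IMCD, mouse 1 held 48.6 TPM of Vhl, below mice 2 and 3 at 83.3 and 85.2 TPM. Neither step called Car9, with -0.43 ± 0.292 from OMCD to IMCD (adjusted p = 0.283) and -0.74 ± 0.313 from DTL2 to DTL3 (adjusted p = 0.0894). From cortex to inner medulla, 3 of 10 were called, against 21.7% of all genes. Hif1a rose by 1.70 ± 0.104 (adjusted p = 1.1e-18), Egln3 rose by 2.04 ± 0.171 (adjusted p = 3.46e-14) and Epas1 fell by 1.14 ± 0.106 (adjusted p = 7.21e-13). Vhl at 0.99 and Vegfa at -0.996 lay at the threshold of 1 and were past it in some alternatives. With a pseudocount of 5, Epas1 missed the minimum difference in both comparisons (-0.71 and -0.49) and Car9 in the former (-0.89), as did Vhl there with median ratios (0.92). The median difference from cortex to inner medulla was 0.45 over all genes and -0.06 over the members.

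These zone differences describe the sampled segments. Hif1a segment means ran from 24.1 to 263 TPM in the cortex, from 9.63 to 302 in the outer medulla and from 84.1 to 482 in the inner medulla, with overlap of all 3. With segments in place of mice as the units, limma called none of the 10 members in any zone comparison. At an unadjusted p below 0.05 that fit held 0 members from cortex to outer medulla, 2 from outer to inner medulla and 2 from cortex to inner medulla. It called 0%, 0.0858% and 1.63% of all genes, and at an unadjusted p below 0.05 it held 4131, 1822 and 8178 of the 33793 genes in the same order.

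A comparison within the same or the continuing tubule keeps the tubule type closer. Along the proximal straight tubule, Hif1a fell by 1.48 ± 0.199 from PTS2 to PTS3 (adjusted p = 2.16e-07), 1 of 10 members called against 4.7% of all genes. The PTS3 mice, at 7.57 to 11.4 TPM, lay below all PTS2 mice, at 26.0 to 35.3 TPM. Vegfa was 0.72 ± 0.16 lower in PTS3 (adjusted p = 0.000782), short of the minimum difference, with 38.5 to 47.0 TPM against 65.8 to 84.0 TPM and no overlap. After quantile normalization Hif1a was at -0.97 and missed the minimum difference. The 5 proximal markers summed to 5442 to 7515 TPM in PTS2 and 92.6 to 109 TPM in PTS3. Slc34a1 and Slc22a6 carried that fall, with means of 5659 and 981 TPM in PTS2 and 44.2 and 1.45 TPM in PTS3. Lrp2 averaged 82.9 TPM in PTS2 and 34.25 TPM in PTS3, and Cubn 23.0 and 18.75 TPM in the same order. The early-response sum was 21.2 to 37.8 TPM and 14.05 to 18.4 TPM in the same order. The 4 principal cell markers summed to 32.3 to 37.8 TPM and 0, and the 3 thick limb markers to 9.08 to 18.6 TPM and 0.785 to 1.87 TPM. Most of the principal sum in PTS2 was Aqp3, at a mean of 29.2 TPM, with Aqp2 at 5.15 TPM. None of these sums overlapped, and their part was not tested. Car9 differed by 0.23 ± 0.28 (adjusted p = 1), and its groups overlapped.

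Along the thick limb, no member was called from CTAL to MTAL by limma, against 3.15% of all genes. At an unadjusted p below 0.05 there were 4 of 10 members, against 13.9% of all genes: Hif1a at -0.58 ± 0.199, Epas1 at -0.51 ± 0.202, Arnt at -0.41 ± 0.158 and Vegfa at 0.47 ± 0.16, with adjusted p of 0.0681 to 0.156. Along the collecting duct from CCD to OMCD, none of the 10 was called, against 12.1% of all genes, and 2 had an unadjusted p below 0.05, against 39.7% of all genes. Vegfa was 0.43 ± 0.147 lower in OMCD (adjusted p = 0.0271) and Epas1 0.44 ± 0.186 lower (adjusted p = 0.0673). Hif1a differed by 0.03 ± 0.183, with CCD at 236 to 291 TPM and OMCD at 224 to 297 TPM.

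The step from OMCD to IMCD had 3 members called, against 18.6% of all genes. Vegfa fell by 2.44 ± 0.168 (adjusted p = 2.71e-16), from 61.9, 87.2, 119.6 and 107.9 TPM in the OMCD mice to 11.3 to 20.6 TPM in IMCD. Epas1 fell by 1.90 ± 0.211 (adjusted p = 4.78e-10), from 3.55 to 4.14 TPM down to 0.19 to 0.54 TPM. Egln3 rose by 2.34 ± 0.342 (adjusted p = 3.17e-07), from 3.24, 4.59, 6.10 and 3.74 TPM to 21.2 to 34.0 TPM. The groups did not overlap for any of these 3 genes, but with a pseudocount of 5 Epas1 was at -0.74. The 4 intercalated cell markers summed to 2431 to 3221 TPM over the OMCD mice and to 0.29 to 3.5 TPM over the IMCD mice, and the 6 leukocyte markers to 110 to 501 TPM and 4.78 to 5.04 TPM. The endothelial sum was 35.5 to 331 TPM in IMCD against 450 to 605 TPM in OMCD. The 4 thin limb markers summed to 1405 to 2691 TPM in IMCD against 3.29 to 14.5 TPM in OMCD. Slc14a2 carried that sum, with means of 2182 TPM in IMCD and 1.74 TPM in OMCD. Psca averaged 7.16 and 0.94 TPM in the same order. Aqp1 (0.847 and 3.51 TPM) and Fst (0.333 and 1.21 TPM) averaged lower in IMCD. None of the sums overlapped, and their part in these differences and in those of the lists below was not tested. Arnt at -0.98 ± 0.166 (adjusted p = 5.1e-06) fell just short of the minimum difference, and the summed receptor background was also lower in IMCD, at 71.7 to 248 TPM against 432 to 927 TPM in OMCD. The part of that background was not tested either.

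Down the long descending limb, from DTL2 to DTL3, 3 members were called, against 9.58% of all genes. Egln3 rose by 1.33 ± 0.366 (adjusted p = 0.00662) and Vhl by 1.10 ± 0.264 (adjusted p = 0.00188), while Epas1 fell by 1.19 ± 0.226 (adjusted p = 9.47e-05). For Epas1 the 3 mice of DTL3, at 3.1 to 5.17 TPM, lay below those of DTL2, at 10.2 to 11.1 TPM, and the endothelial sum was 1289 TPM against 1686 TPM on average, with overlap. Other sums moved without overlap over this step. The 3 thick limb markers summed to 19.2 to 24.6 TPM in DTL2 and 188 to 330 TPM in DTL3. Umod carried that rise, with means of 19.9 and 257 TPM. Slc12a1 averaged 1.28 and 0.927 TPM and Cldn16 0.0833 and 0.278 TPM in the same order. The 6 leukocyte markers summed to 120 to 151 TPM in DTL2 and 11.9 to 19.8 TPM in DTL3. Cd74 carried most of that fall, with means of 101.9 and 2.303 TPM in the same order. Lyz2, C1qa and C1qb also averaged lower in DTL3. Ptprc (4.847 TPM in DTL2 and 6.837 TPM in DTL3) and Cd3e (1.999 and 2.127 TPM) did not fall on average, and their ranges overlapped. The receptor background summed to 1005 to 1212 TPM and 1519 to 1630 TPM. The part of these sums in the 3 member differences was not tested. Both other calls were lost without DTL2 mouse 3, with Egln3 at 1.02 (adjusted p = 0.0775) and Vhl at 0.93 (adjusted p = 0.0237). With all mice kept, the Egln3 call was also lost with quantiles by its p (1.3, adjusted p = 0.0635), the Vhl call with median ratios (0.93) or a pseudocount of 5 (0.998), and the Epas1 call with that pseudocount (-0.77). Hif1a differed by 0.76 ± 0.223 (adjusted p = 0.0109), with overlap between 181 to 450 TPM and 392 to 564 TPM. That overlap came from DTL2 mouse 3 alone, since DTL2 mice 1 and 2 held 275 and 181 TPM. Without mouse 3, Hif1a passed the minimum difference. No omission of 1 mouse left fewer than 2 members called in this step.

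**Figure D3:**
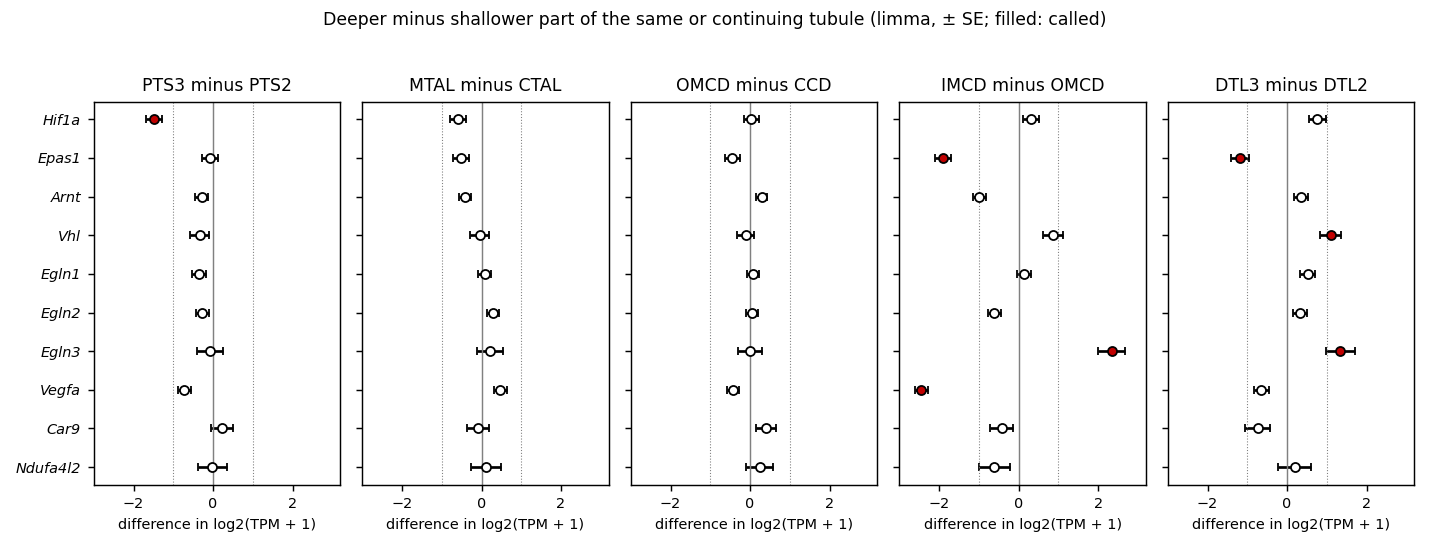
Differences in log2(TPM + 1) between the deeper and the shallower part of a tubule (horizontal axes) with their SE, for the 10 genes; filled points were called and dotted lines mark a difference of 1. Vegfa (-2.44) and Epas1 (-1.90) fall and Egln3 (2.34) rises from OMCD to IMCD, while no gene is called from CTAL to MTAL or from CCD to OMCD.

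Whether the step from cortex to outer medulla differed between tubule types was tested directly as a difference of differences. The Hif1a step along the collecting duct lay 1.52 ± 0.27 above that along the proximal tubule (adjusted p = 5.04e-05), 1 of 10 members called against 11% of all genes. The Vegfa step along the thick limb lay 1.20 ± 0.227 above that along the proximal tubule (adjusted p = 0.00026), 1 of 10 against 4.12%, but at 0.88 after quantile normalization it missed the minimum difference. Between collecting duct and thick limb limma called none of the 10, against 8.12%, and 3 had an unadjusted p below 0.05 (25.7% of all genes), among them Vegfa at -0.90 ± 0.218 (adjusted p = 0.00402) and Arnt at 0.70 ± 0.215 (adjusted p = 0.0271).

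The wider machinery of the pathway was taken as 10 further genes, all tested. They comprise the alpha subunit Hif3a, the partner Arnt2, the asparaginyl hydroxylase Hif1an, the coactivators Ep300 and Crebbp, their competitor Cited2, and the ligase subunits Cul2, Rbx1, Eloc and Elob. Between cortex and inner medulla 3 rose and 1 fell, where 16.6% of all genes rose and 5.11% fell, with a median of 0.71 against 0.45 over all genes. From cortex to outer medulla 1 rose and 0 fell (8.08% and 1.55% of all genes). From outer to inner medulla limma called 0 of the 10, with 8 at an unadjusted p below 0.05 (40.7% of all genes). Within tubules 0 rose and 1 fell from PTS2 to PTS3 (Cul2, at -1.03 ± 0.189), against 0.755% and 3.94% of all genes. From OMCD to IMCD 1 rose and 0 fell, against 3.4% and 15.2% of all genes. In the other 3 steps limma called 0, with 3 at an unadjusted p below 0.05 from CTAL to MTAL (13.9% of all genes), 4 from CCD to OMCD (39.7%) and 5 from DTL2 to DTL3 (31.1%). From cortex to inner medulla Ep300 rose by 1.78 ± 0.098 (adjusted p = 2.25e-20), Crebbp by 1.57 ± 0.113 and Cited2 by 1.35 ± 0.131, while Arnt2 fell by 1.36 ± 0.199 (adjusted p = 9.82e-08). Ep300 was also highest in DTL1 at 61.5 ± 13.1 TPM (n = 3), where the receptor background was highest. Elob, which links VHL to the ligase, was at 1190 ± 238 TPM in IMCD (n = 3) and 456 ± 54.6 TPM in OMCD (n = 4), a rise of 1.36 ± 0.126 (adjusted p = 2.82e-12).

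Of 36 further HIF targets 35 were tested; Epo, the erythropoietin gene, averaged at most 0.374 TPM in any group and did not pass the filter. From cortex to inner medulla 12 rose and 7 fell, where 16.6% of all genes rose and 5.11% fell, and the median was 0.19 against 0.45 over all genes. Genes of the same list thus moved in opposite directions. P4ha2, a collagen prolyl hydroxylase, rose by 3.69 ± 0.129 (adjusted p = 1.34e-27), while Car12, a carbonic anhydrase, fell by 6.43 ± 0.163 (adjusted p = 5.25e-33), the stress-response gene Ndrg1 by 4.78 ± 0.157 and the heme oxygenase Hmox1 by 3.33 ± 0.287. From cortex to outer medulla 3 rose and 6 fell (8.08% and 1.55% of all genes), and from outer to inner medulla 10 rose and 3 fell (3.68% and 4.32% of all genes). Pfkfb3, which drives glycolysis, rose by 2.40 ± 0.176 in the latter (adjusted p = 1.14e-15).

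Within tubules the counts of this list differed by pair. From PTS2 to PTS3 1 rose and 8 fell (0.755% and 3.94% of all genes), with a median of -0.31 against 0 over all genes. Over this step the proximal sum averaged 6746 TPM in PTS2 and 98.7 TPM in PTS3, a fall carried by Slc34a1 and Slc22a6. The 4 principal cell markers summed to 32.3 to 37.8 TPM in PTS2, most of it Aqp3, and to 0 in PTS3. The part of these sums was not tested. From CTAL to MTAL 1 rose and 3 fell (0.589% and 2.57% of all genes), and from CCD to OMCD 4 rose and 4 fell (10.4% and 1.73% of all genes). The receptor background was 22.6 to 58.0 TPM in CCD and 432 to 927 TPM in OMCD. The endothelial sum was 156 to 254 TPM in CCD and 450 to 605 TPM in OMCD, and the part of both was not tested. From OMCD to IMCD 4 rose and 13 fell (3.4% and 15.2% of all genes), with a median of -0.66 against -0.32 over all genes, and the intercalated sum averaged 2859 TPM in OMCD and 1.48 TPM in IMCD. The glucose transporter Slc2a1 was at 412 ± 56.0 TPM in OMCD (n = 4) and 32.2 ± 13.1 TPM in IMCD (n = 3), a fall by 3.74 ± 0.228 (adjusted p = 4.9e-18). From DTL2 to DTL3 7 rose and 1 fell (6.08% and 3.5% of all genes). The mTORC1 inhibitor Ddit4 rose by 2.91 ± 0.431 (adjusted p = 1.28e-06), the lactate exporter Slc16a3 by 2.51 ± 0.341 and Pfkfb3 by 2.16 ± 0.353. The early-response sum was also higher in DTL3, at 103 to 6750 TPM against 90.9 to 161 TPM in DTL2, and its part was not tested.

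By group mean, 8 of the 35 targets were highest in DTL3, 6 in GL, 5 in CNT, 4 in DCT and 3 in PTS2. None was highest in PTS3, CTAL, MTAL or OMCD (0 of 35). Of all 33793 genes tested, 9.79% were highest in DTL3, 22.1% in GL, 1.57% in CNT, 1.25% in DCT and 2.73% in PTS2, against 1.82%, 1.43%, 1.74% and 3.34% in the 4 segments without a target. In DTL1, which held the highest receptor background, 36.8% of all genes and 1 of the 35 targets were highest. Whether the list differed from all genes in this was not tested.

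**Figure D4:**
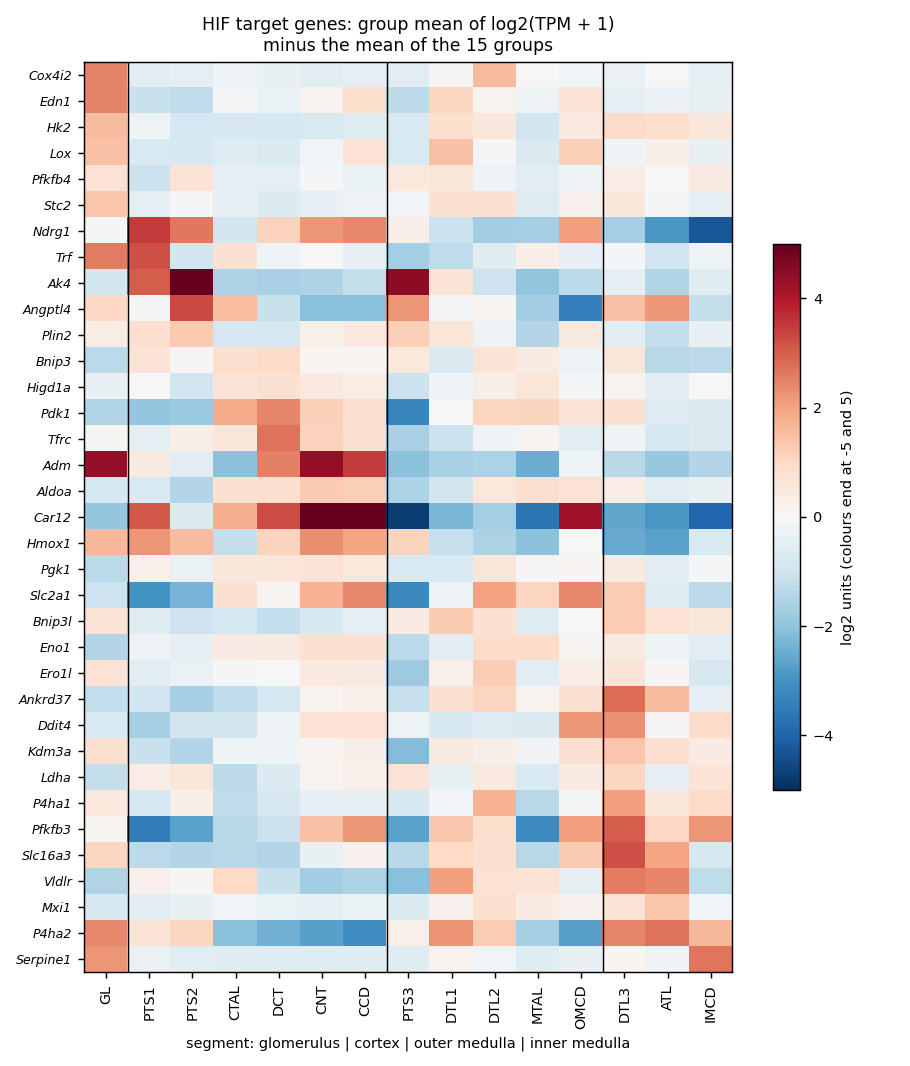
Group means of log2(TPM + 1) minus each gene's mean over the 15 groups (colour, log2 units) for the 35 tested HIF targets (rows) in segments ordered by zone (columns). Rows are ordered by the group in which each gene is highest, 8 of them in DTL3 and 6 in GL; Car12 is high in CNT and CCD and low in PTS3 and IMCD.

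The VEGF family list held 9 further ligands and receptors, all tested, and its direction differed by comparison. From cortex to outer medulla 4 rose and 0 fell (8.08% and 1.55% of all genes), all of them receptors or coreceptors: Nrp2, Flt1, Flt4 and Nrp1. The endothelial sum averaged 3751 TPM in DTL1 and 1686 TPM in DTL2 of the outer medulla, against at most 395 TPM in a cortical tubule segment, and its part was not tested. From outer to inner medulla 2 rose and 4 fell (3.68% and 4.32% of all genes), and from cortex to inner medulla 2 rose and 3 fell (16.6% and 5.11% of all genes). From CCD to OMCD 4 rose and 0 fell (10.4% and 1.73% of all genes). The endothelial sum was 156 to 254 TPM in CCD and 450 to 605 TPM in OMCD. The receptor background was 22.6 to 58.0 TPM in CCD and 432 to 927 TPM in OMCD, and the part of both was not tested. From PTS2 to PTS3 0 rose and 1 fell (0.755% and 3.94% of all genes), and from CTAL to MTAL 0 rose and 3 fell (0.589% and 2.57% of all genes). From OMCD to IMCD 1 rose and 5 fell (3.4% and 15.2% of all genes), and from DTL2 to DTL3 0 rose and 5 fell (6.08% and 3.5% of all genes). The ligand Vegfb fell with Vegfa from OMCD to IMCD, by 4.31 ± 0.144 (adjusted p = 1.9e-27), from 77.9 ± 7.87 TPM (n = 4) to 3.09 ± 0.613 TPM (n = 3). The receptors Kdr and Flt1 fell by 2.93 ± 0.43 and 2.78 ± 0.311, while the coreceptor Nrp1 rose by 1.82 ± 0.243 (adjusted p = 4.28e-08). Kdr averaged 639 ± 105 TPM in GL (n = 3), where Vegfa was also highest, and at most 39.2 TPM in any tubule group. Over this step the mean endothelial sum went from 502 to 199.7 TPM and the intercalated sum from 2859 to 1.48 TPM, and their part was not tested.

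The genes most like each member were sought among 12136 tested genes by Pearson's r of the 15 group means of log2(TPM + 1), and the r is given as a description across groups. Car9 was most like Slc6a13 (r = 0.98), Acox2 (0.98) and Slc6a20a (0.98), all highest in PTS2. Ndufa4l2 was most like Rgs5 (0.98), a mural cell marker, Gpr153 (0.98) and Gdf10 (0.98), all highest in GL. Epas1 was most like H2-Q6, Ptp4a3 and Ccrl2 (each 0.95), also highest in GL. Egln3 was most like Afap1l1 (0.89), Itpk1 (0.88) and Wipi1 (0.87), all highest in DTL3. Hif1a was most like Nfkbiz (0.94), Ptprj (0.94) and Nacc1 (0.93), and Vhl most like Armc10 (0.94), Atmin (0.93) and Pcid2 (0.93). Vegfa was most like Spop (0.87), Coro1a (0.86) and Cdc42bpg (0.85). Arnt was most like Zfp142, Cwc22 and Asb3 (each 0.98), all highest in GL.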

How the data were processed

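Per the labels' protocols, Direct-zol kits served for RNA extraction, SMARTer V4 Ultra Low kits for cDNA and Nextera XT kits for libraries. The deposited values are TPM computed by the authors. The submitters' processing notes name STAR 2.5.4a and RSEM 1.3.0 without a role, and the genome build is not given in the sources used here. Columns summed to 999998.6 to 1000190.3 TPM, and because depth is unknown no counting interval is given. All 93 sample columns were used (0 left aside); 1 PTS2 column matched its segment but no sample title and was kept as a mouse without a number. The 14 columns of the authors' means were not used, and 3 single-cell samples were not analysed here.

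Pieces of 1 mouse and segment were averaged as log2(TPM + 1), and limma 3.58.1 (R 4.3.3, eBayes with trend) was fitted to 15 groups over the 33793 genes with at least 1 TPM in at least 3 mice. The 11 contrasts were two-sided, with Benjamini-Hochberg adjustment over those genes. Python 3.11.15 made the tables and figures. On simulated data with 200 genes changed by 2 log2 units, the fit recovered 99.5% in the contrast of outer medulla with cortex (0 other genes called) and 95% in PTS3 against PTS2 (6 others). In the collecting duct step against the thick limb step it recovered 77% (8 others). Changes nearer the minimum difference of 1 were not simulated, so these shares do not describe them. The series' design text gives 53 mice, which equals the combinations of segment and mouse number, so each was taken as a separate mouse. The members and lists were chosen with earlier results of these data known. From each wider list the text takes at most the 4 called genes with the largest difference per contrast and at least 10 TPM in 1 group, and Ndufa4 was set as the comparison for Ndufa4l2. The likeness search used members spanning at least 2 log2 units and skipped predicted, mitochondrial and ribosomal names. Aldoa has 2 rows, of which the more abundant was used. Alternatives were pseudocounts of 0.1 and 5, other filters, rescalings, other replicate units and the omission of mice or segments.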

Additional observations from a re-analysis of the deposited data

Results flagged for a closer look

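Among the 50 combinations of member and group with 4 or 5 mice, 6 held a mouse far from the others by Dixon's criterion, which by chance marks about 1 in 20 groups. Hif1a in PTS2 was 35.3 TPM in mouse 4 against 26.0 to 27.5 TPM in the other 4. Vegfa in CCD was 133.8 TPM in mouse 1 against 118.8 to 122.9 TPM. The other 4 lay at low levels: Car9 in OMCD at 1.26 TPM in mouse 1 against 0.485 to 0.6 TPM, and Ndufa4l2 at 0.885 TPM in PTS2 mouse 5 against 0.55 to 0.61 TPM. Ndufa4l2 was also at 1.53 TPM in ATL mouse 6, with the other 3 at 0, and at 1.37 TPM in CCD mouse 2 against at most 0.24 TPM.

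The step from cortex to outer medulla differed between tubule types for 2 members. The Vegfa step was 1.20 higher along the thick limb than along the proximal tubule. The Hif1a step was 1.52 higher along the collecting duct than along the proximal tubule. Over all genes 4.12% were called in the former comparison and 11% in the latter. The Vegfa call was lost after quantile normalization, at 0.88.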

How the results depend on the processing

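No called member difference changed direction under any alternative run (0 reversed; 3078 kept their side of the threshold, 76 newly passed it and 26 missed it). The number of members called moved by over 1.5 times as follows. From cortex to outer medulla, where 1 was called, it was 2 with a pseudocount of 0.1, 6 with no minimum difference and 0 with a pseudocount of 5, median ratios, quantiles, segments as units, no thin limbs, or the glomerulus counted as cortex. From outer to inner medulla (4 called) it was 2 with a pseudocount of 5, 7 with no minimum difference and 0 with segments as units. From cortex to inner medulla (3 called) it was 5 with a pseudocount of 0.1, median ratios or quantiles, 8 with no minimum difference, 6 with ATL mice 2 and 3 alone or without the thin limbs, and 0 with segments as units. With no minimum difference it was 2 from PTS2 to PTS3, 1 from CCD to OMCD, 6 from OMCD to IMCD, 6 from DTL2 to DTL3, 2 for the thick limb against the proximal step and 2 for the collecting duct against the thick limb step. It was 5 from OMCD to IMCD with a pseudocount of 0.1, 1 from DTL2 to DTL3 with a pseudocount of 5, 0 from PTS2 to PTS3 and 0 for the thick limb against the proximal step with quantiles, and 1 for the collecting duct against the thick limb step with median ratios. Smaller drops were to 2 from cortex to inner medulla and from OMCD to IMCD with a pseudocount of 5, to 2 from DTL2 to DTL3 with median ratios or quantiles, and to 3 from outer to inner medulla with median ratios. The cause of these shifts was not tested.

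Leaving out 1 mouse at a time gave 3 to 5 members from cortex to inner medulla, 4 to 5 from outer to inner medulla, 3 to 4 from OMCD to IMCD, 2 to 3 from DTL2 to DTL3, 1 to 2 for the thick limb against the proximal step (2 without PTS3 mouse 1 or MTAL mouse 3) and 0 to 1 for the collecting duct against the thick limb step (1 without OMCD mouse 3). From cortex to inner medulla it was 5 without PTS2 mouse 1, DTL3 mouse 3 or ATL mouse 4.

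Over all genes the calls moved from 3254 to between 0 (segments as units) and 24507 (no minimum difference) for outer medulla against cortex, from 2702 to between 29 and 11632 between outer and inner medulla, and from 7341 to between 551 and 25727 between cortex and inner medulla. They moved from 1588 to between 763 and 4370 for PTS3 against PTS2, from 1066 to between 492 and 2239 for MTAL against CTAL, from 4095 to between 839 and 11271 for OMCD against CCD, from 6284 to between 2826 and 11665 for IMCD against OMCD and from 3237 to between 1444 and 6571 for DTL3 against DTL2. For step differences they moved from 1392 to between 866 and 2166 (thick limb against proximal). Calls for the collecting duct step moved from 3726 to between 1534 and 8174 against the proximal step. Against the thick limb step they moved from 2744 to between 1097 and 6073. The F-test called 31732 of 33793 genes, and 38055 of 54532 with no filter. With a filter at 5 TPM, which also left fewer genes to test, it called 17910. The share of all called genes that was higher moved with rescaling (as fitted, by median ratios, by quantiles): 83.9%, 57.8% and 39.2% in outer medulla against cortex, 46.0%, 34.6% and 39.3% in inner against outer medulla, 76.5%, 51.6% and 41.6% in inner medulla against cortex. It was 16.1%, 35.5% and 36.6% in PTS3, 18.7%, 24.6% and 29.4% in MTAL, 85.7%, 74.5% and 43.6% in OMCD, 18.3%, 36.6% and 54.1% in IMCD, and 63.5%, 47.5% and 43.3% in DTL3. For the collecting duct step it was 86.8%, 64.2% and 47.8% against the proximal step and 86.6%, 70.05% and 47.9% against the thick limb step.

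The design text gives 53 mice, as many as the combinations of mouse number and segment. A shared number was therefore not read as a shared mouse. Deviations of the 290 same-numbered pairs had a median r of 0.000185, against 0.000367 for 1016 differently numbered pairs. An r above 0.1 occurred in 19 and 32 of these pairs. Deviations were taken from each group's mean, so a median near 0 cannot decide whether mice were shared. With mouse number as a replicate block (52 mice), 1, 4 and 3 members were called in the 3 zone comparisons, as without it. Depth is unknown, so members near 0 TPM, such as Ndufa4l2 in the tubule, cannot be told from absence.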
